A study of Mus musculus with 3 samples.

Results

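The mouse T-cell receptor genes are 234 of the 27179 genes counted in cultured pro-B cells, the bone marrow precursors that rearrange the immunoglobulin heavy chain. They were taken by symbol alone, as every gene named Tra, Trb, Trd or Trg followed by v, d, j or c, for the alpha, beta, delta and gamma receptor chains, with Tradd, an unrelated adaptor gene, left out. The alpha locus gave 168 genes (116 V, 51 J and 1 C), the beta locus 41 (24 V, 2 D, 13 J and 2 C), the delta locus 10 (5 V, 2 D, 2 J and 1 C) and the gamma locus 15 (7 V, 4 J and 4 C). In the mm10 build the delta genes lie inside the alpha locus, and together they run over chromosome 14 from 52427967 to 54224198. The beta genes run over chromosome 6 from 40891296 to 41558371 and the gamma genes over chromosome 13 from 19178042 to 19352343.

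T-cell receptor genes are assembled in developing T cells by the RAG recombinase, which joins separate V (variable), D (diversity) and J (joining) segments in front of a C (constant) gene. Before and during recombination the unrearranged segments are transcribed from germline promoters, so RNA from a J segment or a constant gene does not by itself show a rearranged receptor gene. The same recombinase acts on the immunoglobulin loci in pro-B cells, and Pax5 is the transcription factor that commits these cells to the B lineage.

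The RNA came from B220+ cells of C57BL/6 bone marrow grown on OP9 stromal cells, with 2 Pax5-/- samples and 1 wild type. The Pax5-/- samples are described as independent, came from male mice and were depleted of IgM+ cells at day 7. The wild-type sample came from a female, and no day or depletion is stated for it. Genotype, sex and depletion therefore cannot be told apart, and the labels do not say which Pax5 exons the allele lacks or whether animals were pooled.

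The libraries held 6487846 and 6697879 counts in Pax5-/- samples 1 and 2 and 6530057 in the wild type. Pax5 had 417, 551 and 1601 counts in that order. Xist had 1, 0 and 1276 counts and the Y-linked Ddx3y 525, 507 and 1, matching the sex labels. Of 8 B-lineage markers the wild type had the higher counts in 7, and the exception was Rag1. Levels are given as CPM, counts per library size after TMM scaling (a correction for composition between libraries). A gene at 0 could have had up to 3 counts, which is 0.462, 0.440 and 0.467 CPM.

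T-cell receptor genes as a whole took 3247 counts in Pax5-/- sample 1, 4205 in sample 2 and 594 in the wild type, which is 0.05005%, 0.0628% and 0.00910% of each library. The make-up of these counts differed between genotypes. In the wild type the gamma locus held 93.1% of them (95% counting interval 90.75% to 95.002%, exact Clopper-Pearson), against 12.7% and 18.1% in the Pax5-/- samples. In the Pax5-/- samples the delta locus held 45.6% and 51.2%, and the beta locus 39.8% and 28.5%. This interval and those below reflect counting error alone and leave out the spread between samples. They treat each read as an independent draw. The reads carry no molecular identifiers and are not independent molecules, so the intervals may be too narrow even for counting error.

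**Figure D1:**
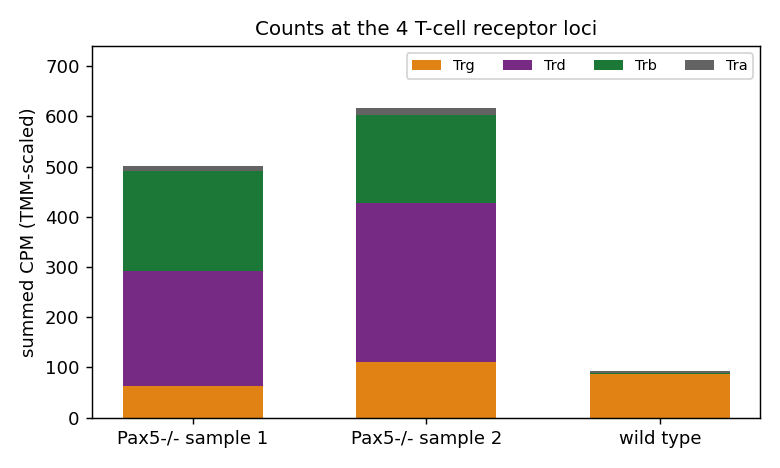
Summed CPM (TMM-scaled) of the T-cell receptor genes in each of the 3 samples, stacked by locus. The Pax5-/- bars reach 501 and 617 CPM and are mostly delta and beta counts, and the wild-type bar reaches 92.5 CPM and is almost wholly gamma.

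By locus, the delta genes summed to 228 and 316 CPM in the Pax5-/- samples and 0.467 CPM in the wild type. The ratio of pooled CPM was 585 (95% counting interval 200 to 2836), and the groups did not overlap. The beta genes summed to 199 and 176 CPM against 1.40 CPM, a ratio of 133 (70.2 to 292). The alpha genes summed to 9.87 and 13.2 CPM against 4.52 CPM, a ratio of 2.56 (1.71 to 3.95). The gamma genes summed to 63.5 and 112 CPM in the Pax5-/- samples, on either side of 86.2 CPM in the wild type, a ratio of 1.02 (0.924 to 1.13). A permutation of 2 samples against 1 cannot reach 0.05, so these sums carry no test. In bulk RNA, fewer cells of a type and less RNA per cell cannot be told apart.

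Of the 234 genes, 165 had no counts in any library. Of the 69 with counts, 49 were above 0 only in Pax5-/- samples, 17 in both genotypes and 3 only in the wild type. With 2 Pax5-/- libraries against 1, a gene of few counts is more readily above 0 in Pax5-/- alone. Over the whole table, 16136 genes had counts in any library and 14420 of them were above 0 in the wild type, against 20 of the 69 receptor genes. The rest of each set was above 0 in Pax5-/- alone. By library, 51 and 58 receptor genes were above 0 in Pax5-/- samples 1 and 2 and 20 in the wild type. Of all genes, 14134, 14306 and 14420 were above 0 in that order. The filter on low counts passed 22 genes and left out 212, of which 47 had between 1 and 14 counts over the 3 libraries. Among the 22, edgeR's quasi-likelihood test with Benjamini-Hochberg adjustment over 11783 genes called 10 higher and 2 lower in Pax5-/- and did not call 10. Over all genes tested 18.1% were called, 9.53% higher and 8.55% lower. A gene that passed the filter only through the genotype where it was high had to differ, so the 12 calls are no measure over all 234 genes: in each of the 12 every library of the lower genotype was under the minimum count of 10, and in 7 of the 10 called higher the wild type was at 0. The calls fell by locus as 7 higher of 9 tested at beta, 3 higher of 4 at delta, 2 lower of 6 at gamma and 0 of 3 at alpha. At alpha 1 of the 3, Trac, had an unadjusted p under 0.05. With no filter, all 69 genes with counts entered the test and 12 were called higher and 2 lower, where 15% of 16136 genes were called, 7.91% higher and 7.08% lower. With 1 wild-type library, the spread was taken from the 2 Pax5-/- samples and applied to both genotypes. For each gene it was drawn toward the trend over all genes tested (3.15 prior against 1 residual degree of freedom). The p-values therefore rest only on the spread between these 2 samples, largely shared across genes.

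**Figure D2:**
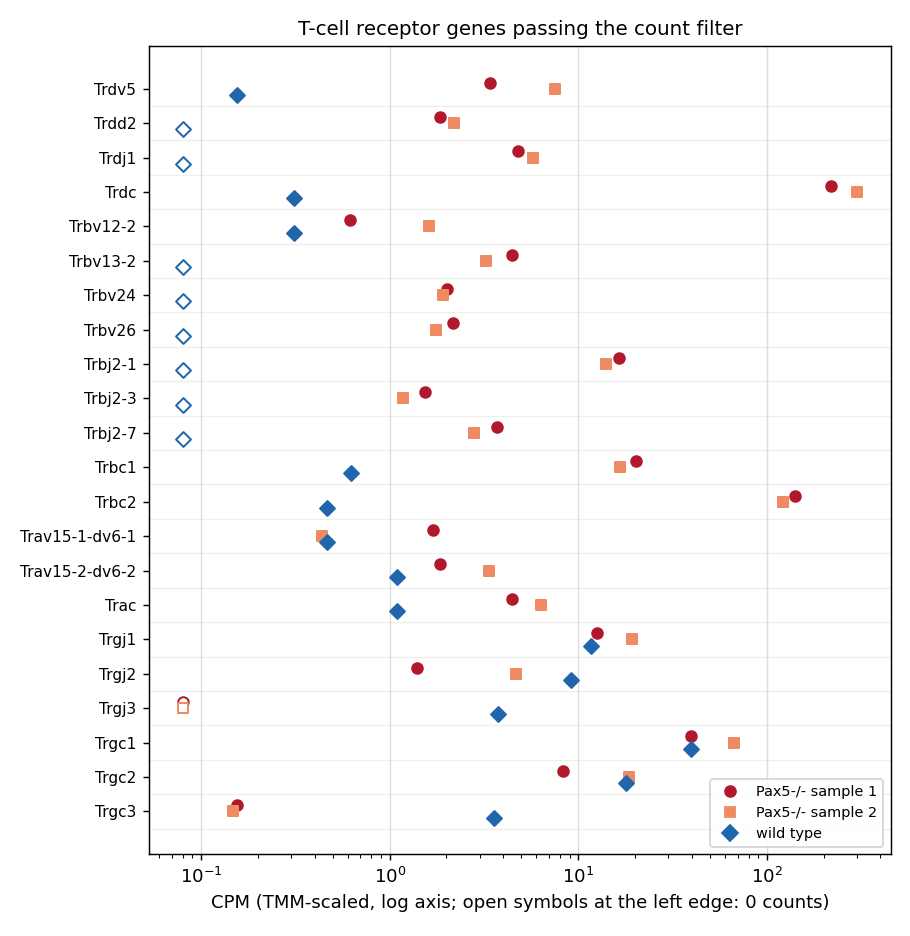
CPM (TMM-scaled, log axis) of the 22 T-cell receptor genes that passed the count filter, 1 point for each sample, with open symbols at the left edge for 0 counts. Trdc and Trbc2 are above 120 CPM in Pax5-/- and below 0.5 CPM in the wild type, and Trgj3 and Trgc3 are the 2 genes with the wild type far to the right.

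The delta constant gene Trdc, which encodes the membrane-proximal part of the delta chain, had the most counts of all T-cell receptor genes. It had 1412 counts in Pax5-/- sample 1, 2045 in sample 2 and 2 in the wild type, or 218, 300 and 0.312 CPM. Both Pax5-/- samples were far above the wild type. The ratio of pooled CPM was 834 (95% counting interval 231 to 6890), and the gene rose in edgeR's test (adjusted p = 0.00327). Trdc held 95.4% and 94.9% of the delta counts in the Pax5-/- samples. Its gene record (Entrez 100123473) spans chromosome 14 from 54142851 to 54146108 in mm10. The first 200 coding bases, from the GENCODE vM21 transcript of GRCm38, chr14:54142851-54148868, plus strand, are shown because this gene took the most counts of the receptor genes.
Trdc: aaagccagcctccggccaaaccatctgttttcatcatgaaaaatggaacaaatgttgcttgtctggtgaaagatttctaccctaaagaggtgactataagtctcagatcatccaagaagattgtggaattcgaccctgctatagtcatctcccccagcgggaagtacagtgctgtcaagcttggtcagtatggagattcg

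Upstream of Trdc, the segments Trdj1 and Trdd2 were counted in the same 2 samples. Trdj1, a delta joining segment whose start lies at -19.7 kb from that of Trdc, had 31, 39 and 0 counts. It rose at least 11.3-fold, taking 3 counts as the limit for the wild type (adjusted p = 0.0177, edgeR). Trdd2, a delta diversity segment at -20.6 kb, had 12, 15 and 0 counts and rose at least 4.34-fold (adjusted p = 0.0467, edgeR), a call lost with DESeq2 and with library size as the only scaling. The other diversity segment, Trdd1, had no counts, and Trdj2 had 1, 1 and 0. Both called segments are shown whole in the transcribed direction, from the plus strand of GRCm38, because counts on so short a stretch come from reads that must reach beyond it: Trdd2 has 16 bases. Capitals mark the phenylalanine-glycine motif of a J segment with the base after it, found by a search of the sense strand alone for TTTGG or TTCGG followed, after 4 bases of any kind, by GG.
Trdd2: atcggagggatacgag
Trdj1: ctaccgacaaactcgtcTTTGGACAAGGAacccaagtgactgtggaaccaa

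That motif was found in 55 of the 70 J segments of the 4 loci (78.6%), with 42 of 51 at alpha, 11 of 13 at beta, 2 of 2 at delta and 0 of 4 at gamma. A segment without it lacks only these letters.

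The delta variable genes were low. Trdv5, which lies 5.81 kb past the start of Trdc in the opposite direction, had 22, 51 and 1 counts. Both Pax5-/- samples were above the wild type, with a ratio of 35.2 (95% counting interval 6.13 to 1410), but the test did not call it (adjusted p = 0.0548, edgeR). It passed the threshold under 7 of the 9 other settings tried. In GENCODE vM21, Trdv5 shares 207 of its 438 exon bases with the last exon of a Trdc transcript on the other strand, and Trdc shares 96 bases with the antisense gene Gm43434. The strand setting of the counting is not stated, so part of the Trdv5 counts could be reads of that longer Trdc transcript. The counted Trdc gene record ends before Trdv5 begins. The other 4 delta variable genes together had 2, 4 and 0 counts. The span of a predicted RNA, Gm30275, overlaps Trdv4, Trdd1, Trdd2 and Trdj1 in RefSeq, and Gm30275 is not a gene of the count table. Exons and strand were not compared for it, so whether any of its reads were counted as theirs is not known.

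At the beta locus both constant genes, which encode nearly identical constant regions of the beta chain, were higher in Pax5-/-. Trbc2 had 910, 832 and 3 counts, or 140, 122 and 0.467 CPM. The pooled levels differed by 280 times (95% counting interval 95.7 to 1360), and the gene rose (adjusted p = 0.00272, edgeR). Trbc1, which starts at -8.51 kb from Trbc2, had 131, 113 and 4 counts, or 20.2, 16.6 and 0.623 CPM (log2 fold change 4.84, SE 0.42, adjusted p = 0.00764, edgeR). For each gene both Pax5-/- samples were above the wild type. Trbc2 took 87.4% (95% counting interval 85.2% to 89.4%) and 88.0% (85.8% to 90.0%) of the counts of both constant genes in the Pax5-/- samples. In the wild type it took 3 of 7.

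The split between Trbc1 and Trbc2 rests on few bases. Over 518 coding bases they were identical at 495 (95.6%), the first difference is at coding base 260 and the next at 383, and 60.3% of all stretches of 50 coding bases in either gene occur unchanged in the other. How the authors treated reads that fit both genes is not given in the sources used here, so the counts of each are uncertain where they share sequence. Coding bases 361 to 480 hold 14 of the 23 differences and are shown for that reason, from GENCODE vM21 transcripts on the plus strand of GRCm38 at chr6:41538218-41539881 for Trbc1 and chr6:41546730-41548352 for Trbc2. Capitals mark the bases that differ.
Trbc1: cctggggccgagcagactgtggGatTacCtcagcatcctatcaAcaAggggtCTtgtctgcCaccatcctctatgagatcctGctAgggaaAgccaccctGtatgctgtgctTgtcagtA
Trbc2: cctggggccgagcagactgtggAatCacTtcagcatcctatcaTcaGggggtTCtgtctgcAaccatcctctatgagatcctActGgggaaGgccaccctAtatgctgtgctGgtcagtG

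The joining segments of beta form a cluster in front of each constant gene. Together the 13 segments had 163, 147 and 0 counts, at least 49.9-fold higher in Pax5-/-, and 12 of the 13 had at least 1 count in a Pax5-/- sample. The cluster in front of Trbc2 held 89.6% (95% counting interval 83.8% to 93.8%) and 88.4% (82.1% to 93.1%) of these counts, shares whose intervals overlap those of Trbc2 among the constant genes. Within it the counts sat on few segments. Trbj2-1, the first of the cluster, at -3.98 kb from Trbc2, had 107, 96 and 0 counts and took 65.6% and 65.3% of all beta joining counts. It rose at least 32.7-fold (adjusted p = 0.00629, edgeR). Trbj2-7, the last of the cluster, had 24, 19 and 0 counts and rose at least 6.92-fold (adjusted p = 0.0312, edgeR). Trbj2-3 had 10, 8 and 0 counts and was not called (adjusted p = 0.0739, edgeR). The counts in the 2 Pax5-/- samples lay close to each other for each of these segments. They are shown with the J motif in capitals, from the plus strand of GRCm38.
Trbj2-1: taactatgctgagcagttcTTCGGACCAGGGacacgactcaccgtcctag
Trbj2-3: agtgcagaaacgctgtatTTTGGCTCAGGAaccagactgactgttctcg
Trbj2-7: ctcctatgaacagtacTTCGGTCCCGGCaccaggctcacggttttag

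In front of Trbc1 the whole cluster had 17, 17 and 0 counts, at least 5.47-fold higher in Pax5-/-, and no segment of it passed the filter. Its leading segments were Trbj1-1, with 4, 10 and 0 counts, and Trbj1-6, with 9, 4 and 0. The diversity segments Trbd1 and Trbd2 had 4, 3 and 0 and 1, 0 and 0 counts. Trbd1, with 12 bases, starts at -13.5 kb and Trbd2, with 14, at -4.57 kb from Trbc2.
Trbd1: gggacagggggc
Trbd2: gggactgggggggc

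**Figure D3:**
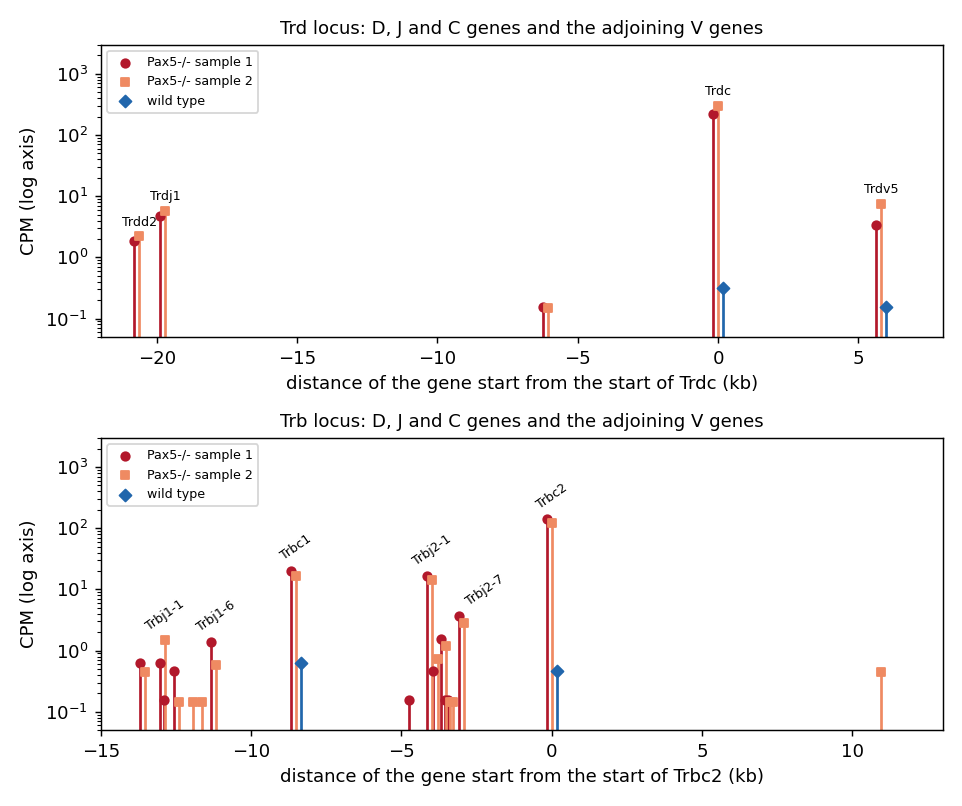
CPM (TMM-scaled, log axis) against the distance in kb from the start of Trdc (upper panel) and of Trbc2 (lower panel) for delta and beta segments near the constant genes; samples at 0 are not drawn and names are printed for most segments above 0.9 CPM. In the Pax5-/- samples the constant genes stand highest, followed by Trdj1 and Trdv5 at delta and by Trbc1 and Trbj2-1 at beta.

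Beta variable genes were counted across the locus, from Trbv1 at -655 kb to Trbv31 at 10.96 kb from Trbc2. Of 24 variable genes 16 had counts, and their sums were 82, 104 and 2, a ratio of 44.9 (95% counting interval 12.2 to 373). Trbv13-2 had 29, 22 and 0 counts, the most of any, and rose at least 8.20-fold (adjusted p = 0.0280, edgeR). Trbv24 had 13, 13 and 0 counts and Trbv26 14, 12 and 0. Both rose at least 4.18-fold, with adjusted p of 0.0468 and 0.0493 (edgeR), and both calls were lost with DESeq2 and with library size as the only scaling. Trbv12-2 was the sole beta variable gene with counts in the wild type, at 4, 11 and 2, and was not called (log2 fold change 1.79, SE 1.15, adjusted p = 0.338, edgeR). Trbv15, with 7, 6 and 0 counts, and Trbv1, with 3, 9 and 0, fell below the filter, and no other variable gene of the locus had more than 9 counts in all. Gene counts do not show whether a variable gene was joined to a J segment.

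The alpha locus gave little RNA in either genotype. Trac, the alpha constant gene, had 29, 43 and 7 counts, or 4.47, 6.31 and 1.09 CPM. Both Pax5-/- samples were above the wild type, with a log2 fold change of 2.29 (SE 0.54) that was not called (adjusted p = 0.0605, edgeR) and that passed the threshold under 5 of the 9 other settings. Of the 51 alpha joining segments 1 had any counts, Traj58, with 1, 1 and 0. Of the 116 alpha variable genes 17 had counts, summing to 34, 46 and 22. The largest was Trav15-2-dv6-2, a variable gene usable with alpha or delta, at 12, 23 and 7 counts (log2 fold change 1.25, SE 0.70, adjusted p = 0.280, edgeR). Trav15-1-dv6-1 had 11, 3 and 3 counts and overlapped between genotypes (log2 fold change 1.15, SE 1.22, adjusted p = 0.546, edgeR). Trav14-1, below the filter, had 5, 5 and 2 counts. Sequence shared among alpha variable genes was not measured here, so reads divided between them are uncertain.

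The gamma locus was transcribed in both genotypes, and its values differed from cassette to cassette, each a J segment with its own constant gene. The cassette of Trgj1 and Trgc1 gave 340, 589 and 330 counts, or 52.4, 86.4 and 51.4 CPM, a ratio of 1.36 (95% counting interval 1.197 to 1.54). The cassette of Trgj2 and Trgc2 gave 63, 159 and 174 counts, or 9.71, 23.3 and 27.1 CPM, a ratio of 0.616 (0.503 to 0.755). That of Trgj3 and Trgc3 gave 1, 1 and 47 counts, or 0.154, 0.147 and 7.32 CPM, a ratio of 0.0205 (0.00242 to 0.0784). The cassette of Trgj4 and Trgc4 gave 0, 2 and 0, all of them from Trgc4. Set against the wild type one by one, Pax5-/- samples 1 and 2 gave ratios of 1.02 and 1.68 in the first cassette, 0.358 and 0.861 in that of Trgj2 and Trgc2 and 0.0211 and 0.0200 in that of Trgj3 and Trgc3. The spread between the 2 samples is thus wider than the counting interval in the first 2, and differences between cassettes were not tested. In the first cassette the wild type lay just below the lower Pax5-/- sample, and in the next 2 it lay above both.

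By gene, Trgc1, at 258, 457 and 255 counts, was not called (log2 fold change 0.43, SE 0.36, adjusted p = 0.446, edgeR). Trgj1, at 82, 132 and 75 counts, was not called either (0.45, SE 0.35, adjusted p = 0.411, edgeR). Trgc2 had 54, 127 and 115 counts, with the wild type between the 2 Pax5-/- samples (log2 fold change -0.41, SE 0.51, adjusted p = 0.614, edgeR). Trgj2 had 9, 32 and 59 counts, both Pax5-/- samples below the wild type, and was not called (log2 fold change -1.58, SE 0.68, adjusted p = 0.187, edgeR). The 2 Pax5-/- samples differed widely from each other in this gene.

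Trgj3 and Trgc3 were the receptor genes that fell. Trgj3 had 0, 0 and 24 counts and was at least 16.6-fold lower in Pax5-/- (adjusted p = 0.0416, edgeR), a call lost with library size as the only scaling. Trgc3 had 1, 1 and 23 counts, and the wild type exceeded Pax5-/- by 23.8 times (95% counting interval 5.89 to 209). It was called lower (adjusted p = 0.0273, edgeR), a call lost with DESeq2. In both genes the single wild-type library carries the difference.

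**Figure D4:**
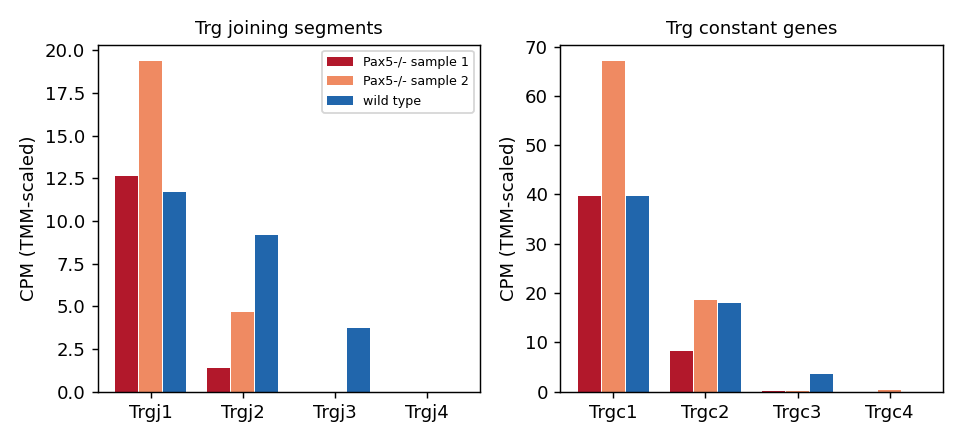
CPM (TMM-scaled) of the 4 gamma joining segments (left) and the 4 gamma constant genes (right) in the 3 samples, with bars from 0. Trgj1 and Trgc1 have bars in all samples, whereas Trgj3 reaches 3.74 CPM and Trgc3 3.58 CPM in the wild type and neither exceeds 0.154 CPM in Pax5-/-.

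As shares within the locus, which do not depend on scaling, Trgj1 took 90.1% (95% counting interval 82.1% to 95.4%) and 80.5% (73.6% to 86.3%) of gamma joining counts in the Pax5-/- samples and 47.5% (39.5% to 55.6%) in the wild type. Trgj2 took 9.89% and 19.5% against 37.3%, and Trgj3 0% and 0% against 15.2%. Trgc1 took 82.4% (77.8% to 86.5%) and 77.9% (74.3% to 81.2%) of the gamma constant counts against 64.9% (59.9% to 69.6%). Trgc3 took 0.319% and 0.170% against 5.85%. For Trgj1 and for Trgc1 the counting interval of the wild type lay below those of both Pax5-/- samples, though with 1 wild-type library the spread between animals is not known.

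The gamma cassettes are close copies, which bears on how reads were divided. Trgc1 and Trgc2 were identical at 97.4% of aligned coding bases, Trgc1 and Trgc3 at 96.9%, and Trgc2 and Trgc3 at 97.0%, while Trgc4 matched the others at 77.1% to 79.9%. Of stretches of 50 coding bases in Trgc1, 13.5% occur unchanged in Trgc2 and 34.3% in Trgc3. The joining segments differ at 4 of 60 bases between Trgj1 and Trgj2 and at 6 between Trgj3 and either of them. Trgj1 lies on the plus strand at chr13:19210343-19210402, Trgj2 on the minus strand at chr13:19311245-19311304 and Trgj3 on the plus strand at chr13:19257117-19257176 (GRCm38). They are shown whole, with capitals at the 8 positions where the 3 are not all the same.
Trgj1: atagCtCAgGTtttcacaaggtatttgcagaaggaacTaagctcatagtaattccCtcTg
Trgj2: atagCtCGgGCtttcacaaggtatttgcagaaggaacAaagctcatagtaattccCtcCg
Trgj3: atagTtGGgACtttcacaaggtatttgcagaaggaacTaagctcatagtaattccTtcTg

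A stretch of 200 coding bases at the start of the constant genes is shown likewise, with capitals at the 12 positions that differ among them, from GENCODE vM21 at chr13:19214103-19217024 (plus strand) for Trgc1, chr13:19304649-19307551 (minus strand) for Trgc2 and chr13:19260885-19263528 (plus strand) for Trgc3.
Trgc1: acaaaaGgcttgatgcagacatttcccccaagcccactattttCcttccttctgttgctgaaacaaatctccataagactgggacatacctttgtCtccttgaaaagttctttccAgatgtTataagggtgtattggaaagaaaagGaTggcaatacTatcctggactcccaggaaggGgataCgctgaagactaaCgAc
Trgc2: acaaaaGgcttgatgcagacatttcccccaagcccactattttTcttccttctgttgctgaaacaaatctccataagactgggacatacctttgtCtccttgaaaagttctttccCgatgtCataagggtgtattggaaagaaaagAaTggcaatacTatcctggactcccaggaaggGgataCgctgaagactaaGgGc
Trgc3: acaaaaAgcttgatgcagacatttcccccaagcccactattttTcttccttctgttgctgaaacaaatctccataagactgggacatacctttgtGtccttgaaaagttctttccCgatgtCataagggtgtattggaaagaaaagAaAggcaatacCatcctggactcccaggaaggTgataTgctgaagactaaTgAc

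Gamma variable genes had few counts. Of 7, 3 had any, and they summed to 8, 10 and 2 counts. Trgv4 had 1, 5 and 2 counts, the most of the 3. The span of a predicted RNA of RefSeq, Gm31887, overlaps Trgv4 and 3 other variable genes, and Gm31887 is not in the count table.

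Per length of the gene model, Trbc2 and Trdc lay among the top 2.40% of genes above 0 in both Pax5-/- samples. Trbc2 stood at 270 and 235 CPM per kb, rank 214 of 14134 genes above 0 in sample 1 and 242 of 14306 in sample 2. Trdc stood at 197 and 272 CPM per kb (ranks 339 and 198), Trgc1 at 76.8 and 129, Trbc1 at 38.9 and 31.9 and Trac at 4.82 and 6.81. The order of Trbc2 and Trdc was not the same in the 2 samples. In the wild type Trgc1 was at 76.7 CPM per kb, Trbc1 at 1.201, Trac at 1.18, Trbc2 at 0.899 and Trdc at 0.282. For scale, the immunoglobulin heavy constant gene Ighm was at 1317 and 1082 CPM per kb in Pax5-/- and 3180 in the wild type, and the kappa constant gene Igkc at 26.0 and 13.8 against 1912. All 5 immunoglobulin constant genes examined were called lower in Pax5-/-, where 8.55% of all genes tested were called lower. Their median log2 fold change was -7.58, against 0.01 over all genes tested, with the IgM depletion stated for the Pax5-/- samples only.

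The proteins that carry a T-cell receptor to the cell surface had counts at or near 0, with the exception of zeta. The zeta chain gene Cd247 had 91, 194 and 1 counts, a ratio of 138 (95% counting interval 24.5 to 5450), and was called higher. Cd3d had 1, 0 and 2 counts, Cd3e 0, 1 and 0, Cd3g 0, 0 and 2 and Ptcra, the partner of the beta chain in the pre-T-cell receptor, 0, 0 and 0. These 4 were at or under the limit of 3 counts in every library. So high counts of Trdc and Trbc2 stood beside near-absent Cd3 counts in the same libraries.

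**Figure D5:**
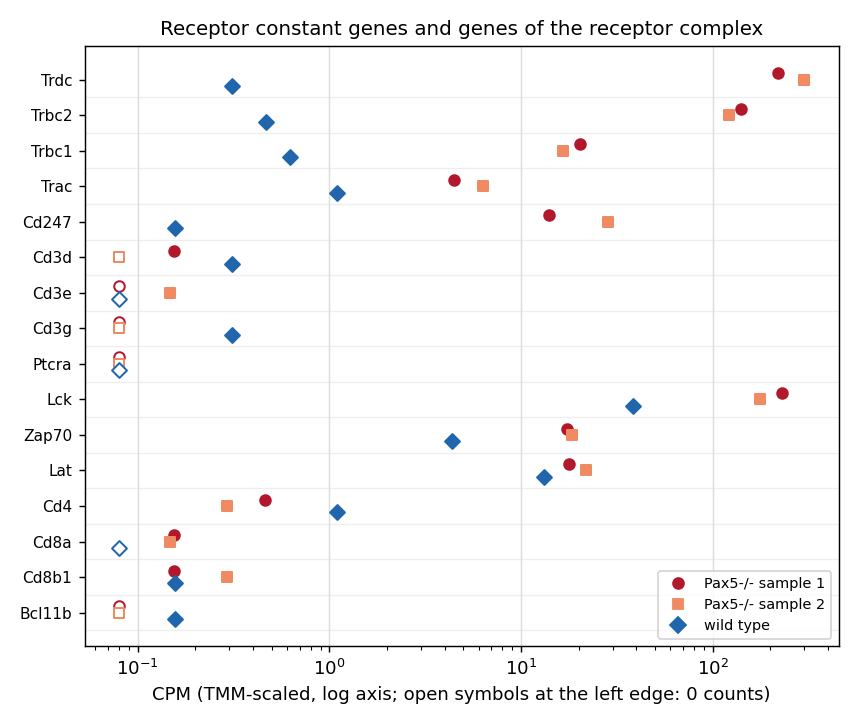
CPM (TMM-scaled, log axis) of receptor constant genes, of genes of the receptor complex and its signalling, and of T-cell markers, 1 point for each sample, with open symbols for 0 counts. Trdc and Trbc2 exceed 100 CPM in Pax5-/-, while Cd3d, Cd3e, Cd3g and Ptcra lie at or below 0.312 CPM in all samples.

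Kinases and adaptors that act just below the receptor, listed together with the phosphatase Ptprc, went both ways. Of 7 tested, 3 rose, 1 fell and 3 were not called (median log2 fold change 0.78), where 9.53% of all genes tested were called higher and 8.55% lower and their median was 0.01. Lck, a kinase bound to the T-cell coreceptors, had 1498, 1196 and 247 counts (log2 fold change 2.40, SE 0.24, adjusted p = 0.0101, edgeR). Zap70, the kinase that docks on phosphorylated zeta and CD3 chains, had 113, 126 and 28 counts (2.04, SE 0.26, adjusted p = 0.0167, edgeR). Ptprc, at 3884, 3851 and 2138 counts, was also called higher (0.80, SE 0.11, adjusted p = 0.0198, edgeR). The adaptor Lcp2 had 18, 14 and 229 counts and fell by 3.88 on the log2 scale (SE 0.27). Lat, at 115, 149 and 85 counts, and Fyn, at 961, 882 and 622, were among those not called.

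Among 20 tested genes of receptor recombination and T-lineage regulation, 9 rose, 4 fell and 7 were not called (median log2 fold change 0.70), beside the same 9.53% and 8.55% over all genes. Rag1, a subunit of the recombinase, had 3737, 4621 and 2237 counts and was called higher (log2 fold change 0.85, SE 0.15). Rag2, the other subunit, had 471, 493 and 403 counts and was not called (0.21, SE 0.15). Dntt, which adds bases at V(D)J junctions, rose by 1.14 on the log2 scale. Il7r, the receptor whose signal opens the gamma locus in T-cell precursors, had 3073, 2868 and 1518 counts and rose by 0.92. Notch1 had 3503, 4427 and 427 counts (log2 fold change 3.16, SE 0.18), and Satb1, Id2, Tcf7, Runx3 and Runx1 rose by 1.93, 2.30, 1.68, 1.25 and 1.01. Tcf3, which encodes E2A, a factor that binds receptor enhancers, had 1234, 1454 and 4007 counts and fell by 1.63, and Id3, an inhibitor of it, fell by 4.05. Lef1 and Ets1 fell by 2.43 and 0.63. Gata3, at 4, 15 and 2 counts, was not called, and Bcl11b, which T-cell commitment needs, had 0, 0 and 1.

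Of 6 tested genes linked to gamma-delta T cells, 2 rose, 1 fell and 3 were not called (median log2 fold change 1.40), a small count to set beside 9.53% and 8.55% over all genes. Cd27 had 204, 270 and 3 counts, a ratio of 76.2 (95% counting interval 25.9 to 371). Zbtb16, which encodes PLZF, had 54, 137 and 0 counts and rose at least 30.7-fold. Blk, a kinase of B cells and of some gamma-delta T cells, fell by 0.61 on the log2 scale. Sox13, at 11, 11 and 2 counts, and Sox4 were not called.

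Some markers of other cell types were also higher in the Pax5-/- samples and others were not. The calls below stand beside 9.53% called higher and 8.55% called lower over all genes tested. The 12 T-cell markers, Trac among them, summed to 140 and 138 CPM in the Pax5-/- samples and 24.3 CPM in the wild type, with 3, 3 and 2 of them at 0. Nearly all of that sum was Thy1, with 362, 594 and 120 counts, Cd28, with 449, 249 and 5, and Cd5, with 50, 42 and 7, the 3 that were called higher among 5 tested. The defining markers Cd4 (3, 2 and 7 counts), Cd8a (1, 1 and 0) and Cd8b1 (1, 2 and 1) were low in every library, as were the Cd3 genes. The 11 markers of NK and innate lymphoid cells summed to 30.4, 42.1 and 7.17 CPM, with 4, 4 and 2 at 0. Nkg7, at 115, 209 and 5 counts, made up most of that in the Pax5-/- samples but 0.779 CPM in the wild type, and was the 1 called higher of 5 tested, while Ncr1, Eomes and Tbx21 had at most 1 count in any library. Of 5 plasmacytoid dendritic markers, Siglech (115, 182 and 18 counts) and Ccr9 (200, 176 and 21) were called higher, Irf8 was called lower (425, 479 and 2358), and Bst2 and Tcf4 were not called. These 5 summed to 1160, 447 and 887 CPM, of which Bst2 alone gave 786, 126 and 263, and the 6 stromal markers to 6.17, 4.11 and 17.1 CPM. The part of such cells in the receptor counts was not tested.

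The genes around the loci were counted as well. At the end of the alpha and delta locus, Dad1, 11.3 kb past Trac, had 927, 877 and 832 counts and was not called (log2 fold change 0.07, SE 0.15), and Abhd4, 29.9 kb past it, had 149, 162 and 72 counts and was called higher (1.06, SE 0.20, adjusted p = 0.0392, edgeR). On the other side Sall2, 99.3 kb away, had 30, 32 and 5 counts and was also called higher (2.55, SE 0.53, adjusted p = 0.0452, edgeR), and Mettl3 and Tox4 were not called. At beta, Moxd2, 3.80 kb before the first variable gene, had 6, 11 and 0 counts and Ephb6, 45.5 kb past the last, had 40, 54 and 16, and neither was called. At gamma, Stard3nl, 5.33 kb away, had 92, 68 and 72 counts, and the 6 nearest tested genes had adjusted p from 0.0813 to 0.968 (edgeR). Inside the beta locus lie 14 other counted genes, which had 13, 18 and 0 counts together, and 12, 17 and 0 of these belonged to the trypsinogen gene Prss2 (adjusted p = 0.0468, edgeR), named here after its values were seen. The 3 other genes inside the alpha and delta locus had 1, 2 and 0 counts, and the gamma locus held none.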

How the data were processed

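The authors made counts per gene with featureCounts against mm10, per the submitters' processing notes. No version, aligner, annotation or strand setting is named there (not given in the sources used here). The deposited counts are whole numbers without normalization. Symbols and mm10 coordinates came from RefSeq genes of GRCm38.p6, and 25275 of 27179 Entrez numbers (93.0%) matched. Sequences came from GENCODE vM21, matched to all 234 genes by overlap of coordinates within the same segment type. Start and end were the same for 111 of them. They were not the same for the constant genes shown (Trdc, Trbc1, Trbc2, Trgc1, Trgc2 and Trgc3), so those sequences need not equal the counted gene models.

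Groups follow the titles. Counts were tested with edgeR 4.0.16 under R 4.3.3. Genes passed filterByExpr (minimum count 10), were scaled by TMM (factors 1.00, 1.018 and 0.983) and entered glmQLFit and glmQLFTest over all 11783 genes, with a Benjamini-Hochberg threshold of 0.05. There is 1 residual degree of freedom, and the common biological coefficient of variation was 0.203. Changes are given as Pax5-/- relative to wild type, and SE is the coefficient over the square root of F. Against a group at 0, a fold is a bound with 3 counts over the group; against 1 to 3 counts, and for sums, it is the ratio of pooled CPM and its 95% interval (Clopper-Pearson, exact). Alternatives were RLE scaling, library size alone, no filter, a CPM filter, robust estimation, the likelihood ratio test, an assumed coefficient of variation of 0.4, limma-voom (limma 3.58.1), DESeq2 1.42.0, each Pax5-/- sample left out and other sums per locus.

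Genes were named by rule: members with at least 10 counts in all or past the filter, every constant gene, the leading member of each locus and segment type, the 3 nearest tested genes on each side of a locus, and the listed pathway and marker genes. The members and lists were chosen with earlier results of these data known, so no list was tested as a set. Results of some listed genes are not reported here.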

Additional observations from a re-analysis of the deposited data

How the results depend on the processing

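The direction of every called receptor gene held under all settings tried. The number called was 12 and ranged from 8 with library size alone, and 9 with DESeq2, to 15 with the likelihood ratio test; genes called lower numbered 1 instead of 2 with library size alone and with DESeq2. With an assumed coefficient of variation of 0.4 the calls over all genes were 1083 (518 higher and 565 lower) instead of 2130 (1123 and 1007). That setting replaced the estimated common value of 0.203 and used edgeR's exact test, and the part of each change was not tested. DESeq2 lost Trgc3, Trdd2, Trbv24 and Trbv26, and library size alone lost Trgj3, Trdd2, Trbv24 and Trbv26. Trdv5 was gained with RLE scaling, no filter, the CPM filter, robust estimation, the likelihood ratio test, the assumed variation and DESeq2, Trac with the first 5 of these, and Trbj2-3 with the likelihood ratio test and limma-voom.

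Leaving out a Pax5-/- sample leaves 1 against 1, a value with no test and no count of calls. The summed ratios then ran from 2.18 to 2.92 at alpha, 125 to 142 at beta, 488 to 676 at delta and 0.737 to 1.30 at gamma, where the direction turned without sample 2. The log2 fold change of Trgc2 ran from -1.08 to 0.056, and that of Trav15-1-dv6-1 from -0.052 to 1.37, both turning without sample 1. The sums depend on which genes enter. Constant genes alone gave 4.96 at alpha. Variable genes alone gave 44.9 at beta, 38.1 at delta and 4.34 at gamma, and leaving out the gene with the most counts gave 60.2, 85.9 and 0.742. Leaving out Trdv5, an alternative chosen after seeing the data, gave 859 at delta. No scaling moved the median of all genes by as much as 0.1 on the log2 scale. No paired analysis was possible because the labels give no pairing and there is only 1 wild-type sample. Depth limits the 47 genes with 1 to 14 counts, whose differences were not detectable here.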
